A study of Mus musculus with 6 samples.

Results

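The genes described here are 30 genes of cholesterol and fatty acid synthesis, chosen by gene name as members of these pathways. They comprised 18 enzymes of the sterol pathway, 5 regulators of the sterol regulatory element-binding proteins (SREBPs), the sterol carrier Stard4 and 6 enzymes of fatty acid synthesis. All 30 were found among the 49315 genes of the count table. The 18234 genes that reached 5 counts in 2 or more samples were tested, all 30 members among them. The smallest count of any of them in any library was 61.

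The study asked what the long non-coding RNA Gm39822 does in endothelial cells. RNA was sequenced from bEND.3 cells, an immortalized endothelial line from mouse brain, after transfection with Lipofectamine 2000. In the knockdown group (GapmeR 1 to 4, n = 4) the cells received an antisense locked nucleic acid GapmeR against Gm39822, an oligonucleotide that directs RNase H to cut its target. In the control group (Negative Control 1 and 2, n = 2) they received a negative control GapmeR, and both GapmeRs were used at 100 nM. A single knockdown sequence in a single cell line was used, so an effect of that sequence and an effect of losing Gm39822 cannot be told apart.

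Library totals ranged from 29261988 to 37117934 counts. Gm39822 itself had 2, 1, 4 and 2 counts in GapmeR 1 to 4 against 61 and 56 in the controls (log2 fold change -4.82 ± 0.41 (SE), edgeR adjusted p = 8.82e-08), so each library matched its label. All 13 endothelial markers examined were detected. GapmeR 2 stood apart from the other knockdown libraries. The chi-square per degree of freedom over genes was 18.5 to 25.2 in the pairs that held it, against 5.41 to 10.7 in the other GapmeR pairs and 6.67 between the controls. Nothing in the labels says that samples of a group came from separate cultures, so the p-values measure the spread between these samples, which may be technical.

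Cholesterol is built from acetyl-CoA through mevalonate, isoprenoid diphosphates, squalene and lanosterol, and fatty acids are built from the same acetyl-CoA. Transcription of most of these enzymes is driven by SREBPs, membrane-bound factors that SCAP escorts from the endoplasmic reticulum to the Golgi, where proteases release the active part. Sterols hold SCAP back by binding it to the INSIG proteins. The SREBP1 proteins, encoded by Srebf1, act mostly on fatty acid genes, and SREBP2, encoded by Srebf2, mostly on cholesterol genes. Endothelial cells use sterols for the caveolae and other ordered domains of their plasma membrane.

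After knockdown, 8 of the 30 genes were called higher and 8 were called lower (edgeR quasi-likelihood test, adjusted p under 0.05), and 14 passed in neither direction. Over all genes tested, 25.4% were called higher and 20.0% lower, so the members' share of 26.7% in each direction was near the background. All 4 GapmeR samples lay above both controls for 9 members and below both for 9, and the groups overlapped for 12; over all genes tested, 31.9% lay above and 27.3% below. The median log2 fold change was 0.03 over the 30 members and 0.03 over all genes tested. The roles differed in their counts: 7 of 18 sterol enzymes rose and 2 fell (median log2 fold change 0.13), whereas 3 of 5 SREBP regulators fell and 1 rose (median -0.21), and 3 of 6 fatty acid enzymes fell and 0 rose (median -0.17). The difference between the roles was not tested. These values rest on TMM scaling, which lowered the GapmeR samples relative to the controls by 0.15 on the log2 scale compared with scaling by library size alone. Under library size alone, 12 members were called higher and 3 lower (6106 and 2135 of all genes, against 4625 and 3643 with TMM), and the all-gene median was 0.17. The 5 members no longer called lower were Hmgcs1, Msmo1, Srebf2, Scap and Fasn. Without GapmeR 1 there were 5 higher and 7 lower members, and over all genes 4378 higher and 3231 lower. The median log2 fold change of the members was 0.056 without Negative Control 1 and 0.035 without Negative Control 2. In the 14 alternative scalings, filters, tests and sample sets, each at an adjusted p under 0.05, Acat2, Lss, Tm7sf2 and Dhcr7 were called higher and Srebf1, Scd1 and Scd2 lower. When a change of at least 1.5-fold was also required, only Tm7sf2 was called higher, and Srebf1 and Scd1 lower.

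**Figure D1:**
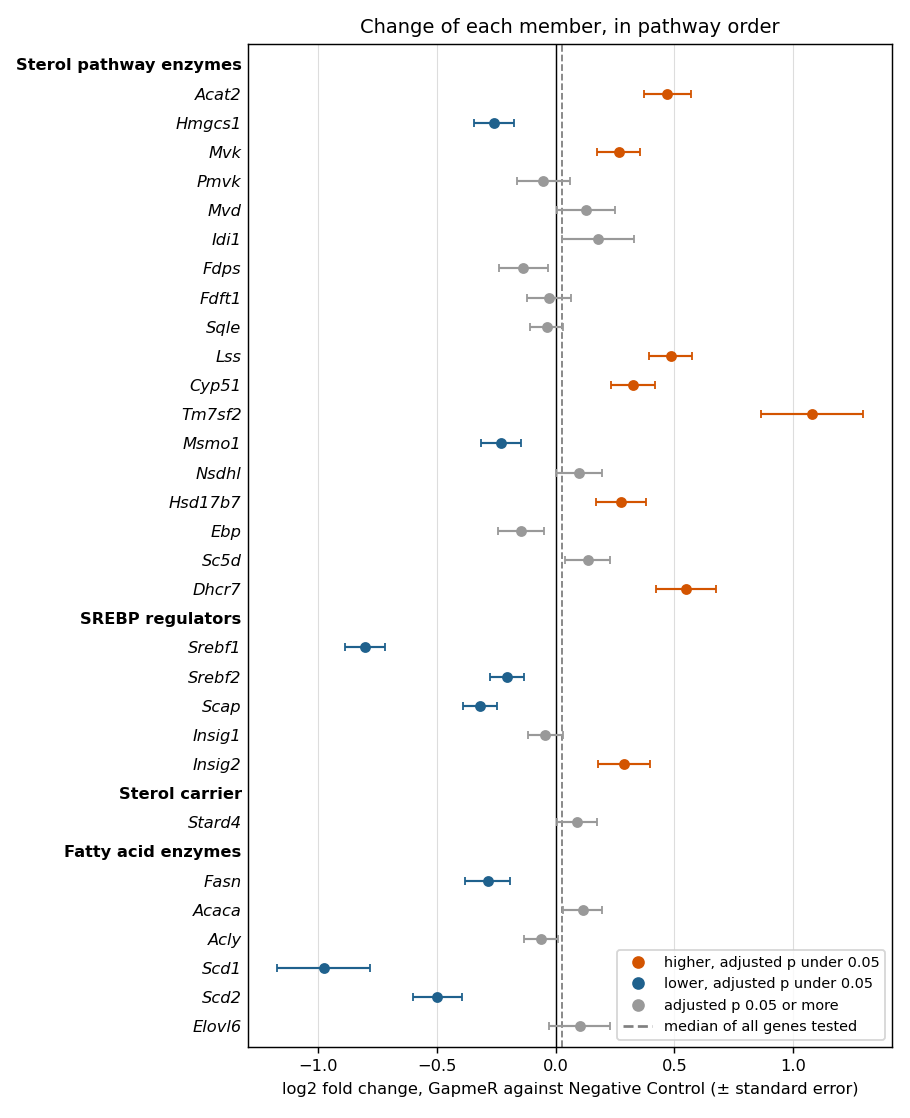
Log2 fold change of each of the 30 genes after Gm39822 knockdown (horizontal axis, with standard error bars), in pathway order within each role. Colours mark genes called higher or lower (adjusted p under 0.05) and the dashed line marks the median of all genes tested at 0.03. Tm7sf2 at 1.08 and Scd1 at -0.98 lie farthest from 0.

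Promoter sequence was examined because the genes share a known regulator. RefSeq windows of 300 bases on build GRCm38.p6, from 250 before to 50 after a gene start, matched 24 of the 30 members. Scd1, Scd2, Fdft1, Fdps, Sqle and Stard4 had no window. The letters CCAAT on either strand, the box bound by the SREBP partner NF-Y, occurred in a window of 20 of these 24 members (83.3%), against 41.1% of the 27025 genes with a window and 42.1% of the tested ones. A gene was counted if any of its windows held the letters. By window, 65.6% of the 32 member windows held them, against 37.4% of all windows. Members that rose held the box in 7 of 8 cases, members that fell in 5 of 6 and the others in 8 of 10. The letters TCACNCCAC, a form of the sterol regulatory element, occurred in 1 member, Hmgcs1, and in 1.44% of all genes. The palindrome TCACGTGA, an E-box that SREBPs can bind, occurred in 0 of the 24 members and in 1.12% of all genes. A match describes the sequence and is not a shown binding site, and no match says only that these exact letters are not in the window. The stretches below are the 150 bases before the start, printed 5′ to 3′ on the gene's strand. They show 3 members that fell (Srebf1, Fasn and Hmgcs1) and 3 that rose (Lss, Dhcr7 and Tm7sf2). Capitals mark CCAAT, its reverse complement ATTGG and, in Hmgcs1, TCACCCCAC; in Fasn a CCAAT and an ATTGG share bases. Srebf1 and Dhcr7 have 3 windows each, of which 1 with a box in the printed stretch is shown. The Dhcr7 stretch shown precedes the start at position 143830214. The Dhcr7 windows with starts at 143823167 and 143823399 held no box.
Srebf1, chr11:60210472-60210621, minus strand: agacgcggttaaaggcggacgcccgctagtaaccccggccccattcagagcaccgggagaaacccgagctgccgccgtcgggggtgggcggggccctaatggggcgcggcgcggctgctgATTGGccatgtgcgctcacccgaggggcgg
Fasn, chr11:120824548-120824697, minus strand: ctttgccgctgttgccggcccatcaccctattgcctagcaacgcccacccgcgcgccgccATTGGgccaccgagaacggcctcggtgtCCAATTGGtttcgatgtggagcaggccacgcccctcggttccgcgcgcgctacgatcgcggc
Hmgcs1, chr13:119690201-119690350, plus strand: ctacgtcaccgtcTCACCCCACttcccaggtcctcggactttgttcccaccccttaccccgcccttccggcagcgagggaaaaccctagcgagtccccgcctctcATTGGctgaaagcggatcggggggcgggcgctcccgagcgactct
Lss, chr10:76531455-76531604, plus strand: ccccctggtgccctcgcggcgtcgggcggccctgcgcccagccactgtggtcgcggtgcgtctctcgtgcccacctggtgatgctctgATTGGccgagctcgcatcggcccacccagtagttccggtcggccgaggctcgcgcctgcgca
Dhcr7, chr7:143830064-143830213, plus strand: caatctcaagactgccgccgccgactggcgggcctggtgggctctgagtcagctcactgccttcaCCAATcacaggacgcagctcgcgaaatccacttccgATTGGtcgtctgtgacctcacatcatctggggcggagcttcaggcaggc
Tm7sf2, chr19:6067851-6068000, minus strand: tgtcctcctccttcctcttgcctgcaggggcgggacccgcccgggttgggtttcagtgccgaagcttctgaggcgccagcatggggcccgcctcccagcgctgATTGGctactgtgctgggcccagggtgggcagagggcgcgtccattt
Positions are given relative to the start of the window shown. The first base of the box nearest to that start in these stretches lay at -30 in Srebf1, -59 in Fasn, -45 in Hmgcs1, -62 in Lss, -49 in Dhcr7 and -47 in Tm7sf2. The box was present in genes that rose and in genes that fell.

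Among the regulators, the 2 SREBP genes and the SREBP escort Scap were lower after knockdown, and the INSIG genes were not called lower. Srebf1 (chr11:60199084-60224186, mm10) had 125, 100.4, 124 and 119 TMM-normalized CPM (counts scaled for library size, the unit used from here on) in GapmeR 1 to 4 and 202 and 207 in the controls. All 4 knockdown values lay far below both controls, and the level fell by 42.7% (log2 fold change -0.80 ± 0.08, given with ± as the standard error here and in the brackets that follow, edgeR adjusted p = 1.15e-06). Without GapmeR 2, its lowest sample, the log2 fold change was -0.73. Srebf2 (chr15:82147269-82205379) had 116, 107, 119 and 113 CPM against 130.2 and 132, without overlap. Its fall was small, at -0.21 ± 0.07 (edgeR adjusted p = 0.026), and under scaling by library size the adjusted p was 0.51. Scap (chr9:110333288-110384949) had 65.9, 62.3, 69.5 and 71.8 CPM against 83.9 and 84.2, again with every knockdown sample below both controls. Its log2 fold change was -0.32 ± 0.07 (edgeR adjusted p = 0.0022).

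Insig1, which retains SCAP in the endoplasmic reticulum and is itself an SREBP target, had 59.6, 60.7, 57.0 and 59.0 CPM against 64.4 and 57.4. The groups overlapped (log2 fold change -0.04 ± 0.07, edgeR adjusted p = 0.66). Insig2, the less sterol-responsive relative of Insig1, had 15.8, 19.6, 15.4 and 16.2 CPM against 13.1 and 14.4. It was called higher close to the threshold (0.29 ± 0.11, edgeR adjusted p = 0.045), and the adjusted p was 0.058 with the DESeq2 Wald test and 0.062 with limma-voom. Within libraries, where no scaling between samples enters, there were 1.07, 0.942, 1.04 and 1.05 Srebf1 counts per Srebf2 count after knockdown, against 1.55 and 1.56 in the controls. Reads of Scap and Srebf2 can be shared with genes that overlap them on the opposite strand, since the strand setting of the counting is not given in the sources used here. 5830462I19Rik covered 8.81% of the exonic bases of Scap and had 1.23 to 1.77 CPM after knockdown against 0.511 and 0.157 in the controls. Ptpn23 covered 0.415% of the exonic bases of Scap and had 165 to 220 CPM against 208 and 218. Shisa8 covered 7.34% of those of Srebf2 and had 2.20 to 2.75 CPM against 0.0730 and 0.282. The part of shared reads in the 2 members was not tested.

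The enzymes from acetyl-CoA to the isoprenoid diphosphates moved in both directions. Acat2, which condenses acetyl-CoA at the entry to the pathway, had 19.0, 19.0, 19.3 and 22.3 CPM against 14.6 and 14.1. All knockdown samples lay above both controls, GapmeR 4 highest, a rise of 38.6% (0.47 ± 0.10, edgeR adjusted p = 0.00099). Tcp1, on the opposite strand, covers 5.48% of the exonic bases of Acat2. It had 233 to 256 CPM after knockdown against 271 and 235 in the controls, and the part of shared reads was not tested. Hmgcs1, the synthase of the next step, had 38.4, 42.2, 34.4 and 38.5 CPM against 44.6 and 47.4. It was lower in each knockdown sample (-0.26 ± 0.08, edgeR adjusted p = 0.018), but with GapmeR 1 and 2 alone the adjusted p was 0.16. Mvk, mevalonate kinase, had 55.8, 47.3, 59.4 and 51.9 CPM against 47.1 and 42.1. The lowest knockdown sample was just above the higher control (0.27 ± 0.09, edgeR adjusted p = 0.026).

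The following 4 enzymes did not pass the test, and their groups overlapped. Pmvk, phosphomevalonate kinase, ranged from 9.47 to 11.5 CPM in the knockdown and from 10.4 to 11.1 in the controls (log2 fold change -0.05). Mvd, the decarboxylase that makes isopentenyl diphosphate, ranged from 9.61 to 12.2 CPM against 9.18 to 10.5 (0.13). Idi1, the isomerase, ranged from 4.84 to 6.32 CPM against 4.64 to 5.51 (0.18). Fdps, which makes farnesyl diphosphate, ranged from 18.2 to 23.3 CPM against 20.8 to 23.3 (-0.14). Antisense Gm51557 covers 20.5% of the exonic bases of Mvd, so that its counts are less certain.

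At the squalene stage the change was small, and from lanosterol onward 5 of the enzymes rose. Fdft1, squalene synthase, had 20.3 to 24.6 CPM in the knockdown against 22.4 to 23.4 (log2 fold change -0.03). It overlaps Ctsb on the opposite strand, which covers 24.8% of its exonic bases and fell by 0.50 on the log2 scale. Sqle, the squalene epoxidase that limits flux at this stage, had 53.0, 56.3, 52.6 and 53.9 CPM against 54.6 and 56.1, a log2 difference of -0.04 ± 0.07. Lss, which folds squalene epoxide into lanosterol, had 24.3, 21.6, 21.6 and 23.0 CPM against 16.3 and 16.0. No knockdown sample came near the controls, and the rise was 39.9% (0.48 ± 0.09, edgeR adjusted p = 0.00038).

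Cyp51, the lanosterol demethylase, had 16.9, 16.3, 18.1 and 17.4 CPM against 13.7 and 13.7, without overlap (0.33 ± 0.09, edgeR adjusted p = 0.0094). Akap9, on the opposite strand, covers 21.1% of its exonic bases and rose too, by 0.21 on the log2 scale. Tm7sf2, a sterol reductase that acts after Cyp51, had 4.72, 6.22, 4.55 and 5.97 CPM against 3.21 and 1.91. This was the only member that rose by at least 1.5-fold, at 2.11-fold (1.08 ± 0.22, edgeR adjusted p = 0.00078), on counts of 141 to 242 against 88 and 61. The controls differed from each other by more than for other members (SD 35.9% of the mean), and Vps51 on the same strand shares 10.8% of the exonic bases of Tm7sf2.

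Msmo1, the methyl sterol oxidase, was beside Hmgcs1 the other sterol enzyme that fell. It had 24.0, 25.3, 22.9 and 22.1 CPM against 27.2 and 28.2 (-0.23 ± 0.08, edgeR adjusted p = 0.034), and the DESeq2 Wald test gave an adjusted p of 0.063. Hsd17b7, the ketosteroid reductase of the same demethylation steps, had 10.2, 10.99, 10.5 and 10.7 CPM against 8.72 and 8.81 (0.27 ± 0.11, edgeR adjusted p = 0.047). With the DESeq2 Wald test its adjusted p was 0.084. Nsdhl, the dehydrogenase between these enzymes, had 14.0 to 15.2 CPM against 13.0 to 14.1 (log2 fold change 0.10). Ebp, the sterol isomerase, had 17.3 to 20.1 CPM against 18.9 to 22.7 (-0.15), and Sc5d, the desaturase that follows it, had 21.5 to 25.6 CPM against 19.6 to 22.7 (0.14); none of these 3 passed the test. Dhcr7, the final reductase to cholesterol on its branch, had 9.44, 8.76, 8.70 and 10.4 CPM against 6.13 and 6.58. It rose by 46.4% with every knockdown sample above both controls (0.55 ± 0.13, edgeR adjusted p = 0.002).

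The balance between enzymes was also read within libraries. There were 1.01, 0.854, 0.942 and 1.04 Lss counts per Msmo1 count after knockdown, against 0.601 and 0.568 in the controls. The same contrast for Dhcr7 and Sc5d was 0.411, 0.379, 0.340 and 0.482 Dhcr7 counts per Sc5d count against 0.312 and 0.290. For such ratios of 4 against 2 samples, an exact permutation test cannot give a two-sided p below 0.067, so none was used. Stard4, which carries cholesterol between membranes and is an SREBP2 target, had 30.8, 32.6, 27.7 and 29.2 CPM against 27.7 and 28.8, and the groups overlapped (0.09 ± 0.08, edgeR adjusted p = 0.41).

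**Figure D2:**
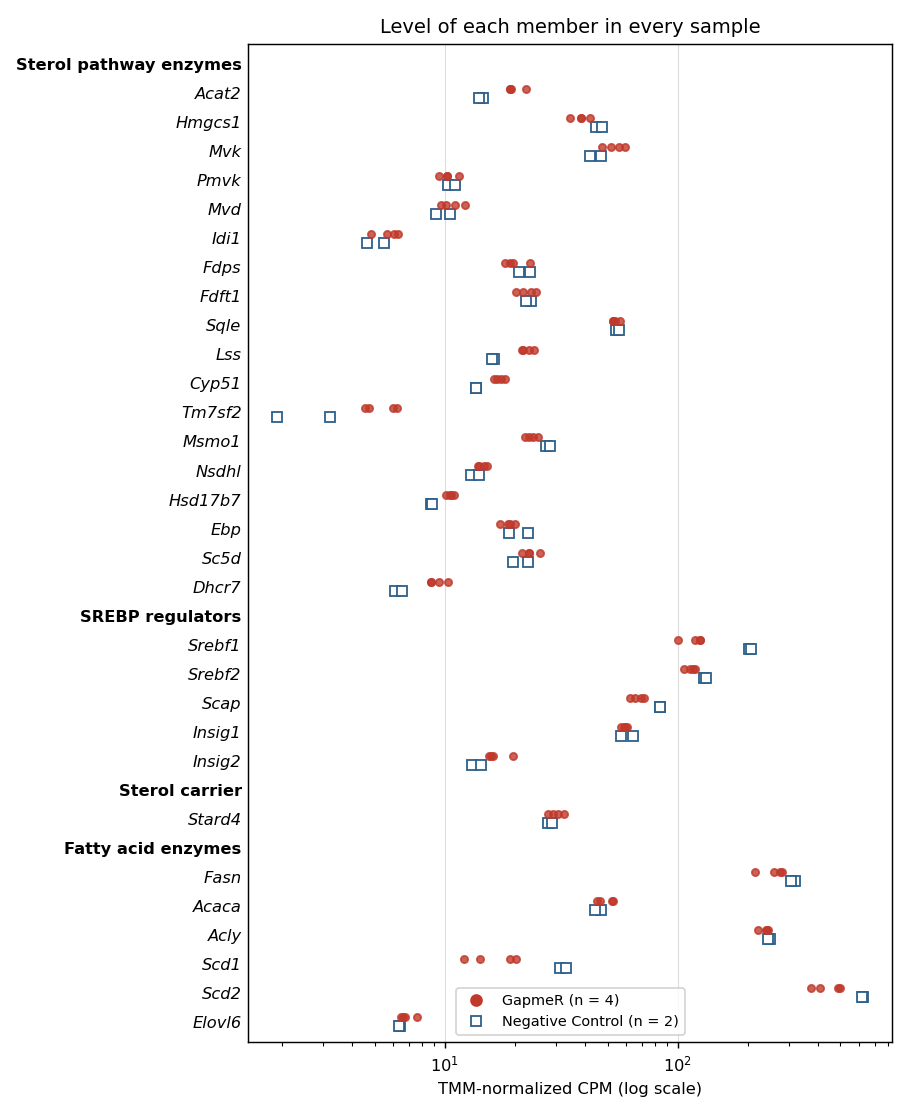
TMM-normalized CPM on a log scale for each of the 30 genes in the 4 GapmeR samples (filled circles) and the 2 Negative Control samples (open squares), grouped by role. The groups overlap for 12 genes. All GapmeR samples lie above both controls for 9 genes and below both for 9, against 31.9% and 27.3% of all genes tested. Those apart include Srebf1, Scd1 and Scd2, which were lower after knockdown, and Acat2, Lss, Tm7sf2 and Dhcr7, which were higher.

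The fatty acid enzymes that fell were the stearoyl-CoA desaturases Scd1 and Scd2 and the synthase, whereas the enzymes that supply and extend the chain did not pass. Scd1 (chr19:44394450-44407709, mm10), which puts the double bond into stearate and palmitate, had 20.3, 12.05, 19.1 and 14.1 CPM against 31.2 and 33.2. GapmeR 2 and 4 were lowest, all knockdown samples lay below both controls, and the level fell by 49.3% (-0.98 ± 0.19, edgeR adjusted p = 0.0044). Without GapmeR 2 its log2 fold change was -0.85. Scd2 (chr19:44293676-44306864), a related desaturase on the same chromosome, had 498, 373, 486 and 407 CPM against 626 and 621. Its level fell by 29.2% (-0.50 ± 0.10, edgeR adjusted p = 0.0013), with the same order of the 4 knockdown samples. The related genes Scd3 and Scd4 are not members and are named here after their values were seen. Scd4 had 37, 37, 40 and 55 counts after knockdown against 12 and 13 in the controls and was called higher (1.56 ± 0.35, edgeR adjusted p = 0.0017). Scd3 had 4 to 16 counts against 12 and 11 and did not pass (edgeR adjusted p = 0.37). Because the Scd paralogs are alike in sequence, some reads may have been assigned to the wrong one or dropped. The libraries held 0.0407, 0.0323, 0.0393 and 0.0347 Scd1 counts per Scd2 count after knockdown and 0.0498 and 0.0536 in the controls.

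Fasn (chr11:120805958-120825166), the synthase that builds palmitate, had 276, 215, 279 and 258 CPM against 320.3 and 307. Every knockdown sample was below both controls, and the level fell by 18.01% (-0.29 ± 0.09, edgeR adjusted p = 0.021). Its adjusted p was 0.22 under scaling by library size and 0.19 and 0.12 without the first and the second control. Acly, which splits citrate into acetyl-CoA, had 239, 222, 241 and 244 CPM against 249.5 and 245, and the difference did not pass although the groups did not overlap (-0.06 ± 0.07, edgeR adjusted p = 0.51). Acaca, the carboxylase that makes malonyl-CoA for Fasn, had 45.1 to 52.7 CPM against 44.2 to 46.7 (log2 fold change 0.11). There were 5.26, 4.77, 5.30 and 5.55 Fasn counts per Acaca count after knockdown, against 6.85 and 6.96. Elovl6, which lengthens palmitate to stearate, had 6.49 to 7.63 CPM against 6.36 to 6.46 (log2 fold change 0.10, edgeR adjusted p = 0.55).

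**Figure D3:**
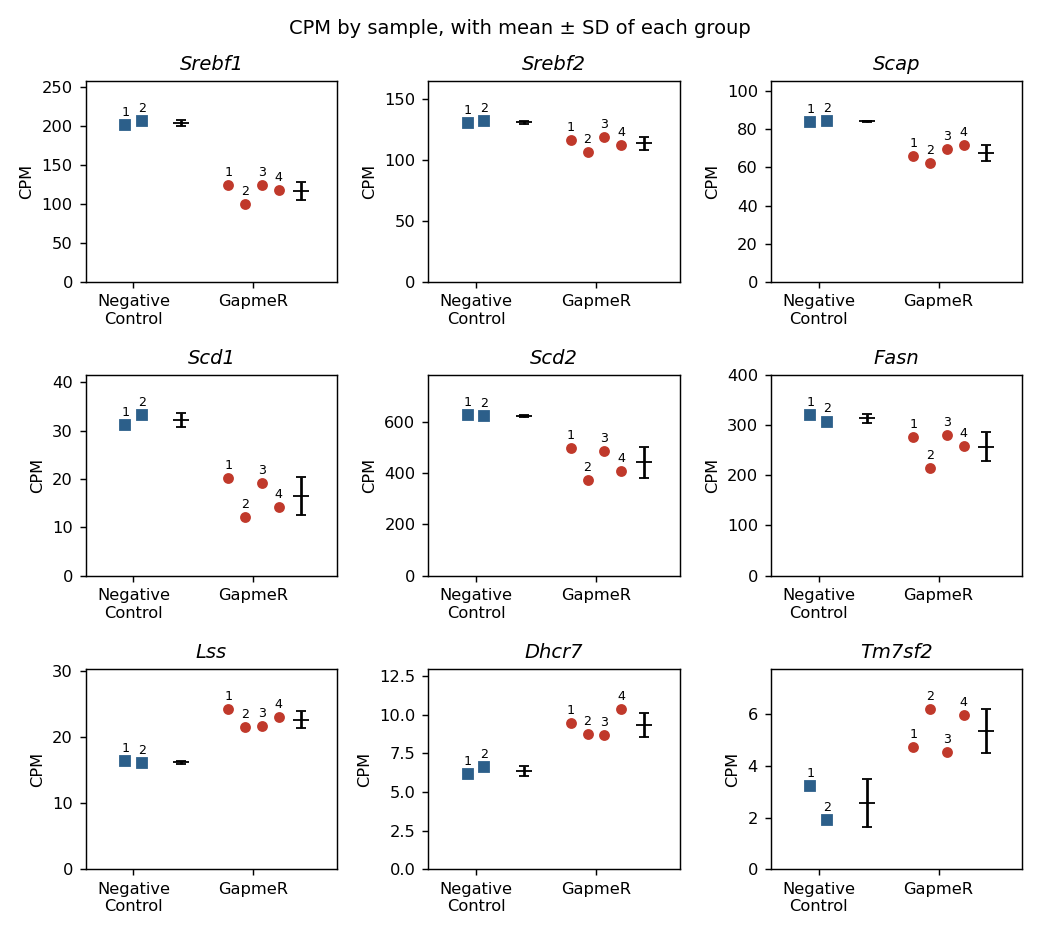
TMM-normalized CPM by sample for 9 of the genes (vertical axes start at 0, numbers beside points are the sample numbers), with the mean and SD of each group (n = 4 and n = 2) beside the points. The upper rows show genes that fell, with GapmeR 2 lowest in all 6, and the lowest row shows genes that rose, with GapmeR 2 highest for Tm7sf2.

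Summed by role, the fatty acid enzymes had 1092, 875, 1086 and 977 CPM after knockdown, against 1280 and 1256 in the controls. The SREBP regulators summed to 382, 349.7, 386 and 378 CPM against 493 and 494. The sterol enzymes, by contrast, summed to 388, 375, 383 and 376 CPM against 365 and 359. Each sum is dominated by its most abundant genes, and no test was made on it. All 30 members together held 0.171% to 0.194% of the counts of the knockdown libraries and 0.199% to 0.203% of the control libraries.

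Levels of different genes were compared as CPM per kilobase of merged exons. Merged exons hold every base that is exonic in any annotated transcript of a gene, so they can exceed the length of the transcripts expressed here. The order of genes by this measure therefore depends on the annotation. In the controls Scd2 stood highest at 82.8 CPM per kilobase, followed by Srebf1 at 34.6, Fasn at 26.8, Acly at 17.0, Srebf2 at 14.0 and Insig1 at 12.5. Tm7sf2 was lowest at 0.521, below Elovl6 at 0.755 and Dhcr7 at 0.776. After knockdown Scd2 was still highest at 58.6 CPM per kilobase, and Fasn at 22.0 stood above Srebf1 at 19.9. Scd1 went from 4.47 to 2.27 CPM per kilobase, so Scd2 was the more abundant desaturase transcript in this line in both groups.

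The 4 knockdown samples were not equal. GapmeR 2 had the lowest value of the 4 for 15 of the 30 members and for 6 of the 8 called lower, and the highest value for 10 members. The calls were also made without it, and then 6 members were higher and 8 lower (4770 and 3949 of all genes). GapmeR 3 and 4 had more counts on macrophage markers (348 and 382 summed CPM over 10 genes) than GapmeR 1 and 2 (227 and 208) and the controls (177 and 172). Of the 10 markers, 2 were called higher, a share of 20% against 25.4% of all genes tested, and 0 lower. Their median log2 fold change was 1.05, and 9 of the 10 were above 0. All GapmeR samples lay above both controls for 6 of the 10, against 31.9% of all genes tested. With GapmeR 1 and 2 alone against both controls, 6 members were higher and 5 lower (4458 and 3203 of all genes). Srebf1 was then at -0.84, Scd1 at -0.98, Scd2 at -0.50, Lss at 0.52 and Tm7sf2 at 1.14 on the log2 scale, all still called.

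Other markers moved with the groups as well. Of 13 endothelial markers, 8 were called lower (61.5%) and 1 higher (7.69%), against 20.0% and 25.4% of all genes tested. Their summed level was 6782 to 7793 CPM after knockdown against 8953 to 9211. Summed mural cell markers (8 genes) were 8.56 to 13.1 CPM against 2.16 to 2.26. Of the 7 tested, 2 were called higher (28.6%), near the share of all genes, and 0 lower. Their median log2 fold change was 1.09, against 0.03 over all genes tested, and 6 of the 7 were above 0. Summed neural markers (7 genes) were 26.2 to 42.4 CPM against 54.5 to 55.2, with 5 called lower (71.4%). Of 8 adipocyte and hepatocyte markers, 5 were too low to test and Lep was at 0 counts in every library; their sum of 20.9 to 22.7 CPM against 0.251 to 0.402 was nearly all Apoa1. The 3 that could be tested were all called higher: Apoa1 had 654 to 789 counts after knockdown against 10 and 6, Adipoq had 7 to 13 against 1 and 0, and Plin1 had 7 to 14 against 0 and 2. The part of these marker changes in the lipid gene results was not tested. In such bulk samples, fewer cells of a type and less RNA per cell cannot be told apart.

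Further lipid genes were counted in lists that had been set by function. Over all genes tested, 25.4% were called higher and 20.0% lower, and the counts of each list stand beside these shares. Of 16 other genes of SREBP processing, 8 were called lower (50%) and 2 higher (12.5%), with a median log2 fold change of -0.14. The lowest were Rnf145, a sterol-regulated ubiquitin ligase that acts on SCAP, which went from 129 ± 8.37 CPM (SD, n = 2) to 82.4 ± 3.85 (n = 4), and Pgrmc1, a heme-binding membrane protein that interacts with SCAP and INSIG, which went from 201 ± 3.54 to 134 ± 12.6 CPM. The highest were Paqr3, a Golgi anchor of SCAP (0.47 on the log2 scale), and Sec24d, a coat protein of the vesicles that leave the endoplasmic reticulum (0.30). Of 9 other genes of sterol metabolism, 1 was lower (Hsd17b11, -0.30) and 1 higher (Lbr, which has a sterol reductase activity like that of Tm7sf2, 0.21). The isoprenoid branch, which draws on the same mevalonate, had 4 of 14 genes higher and 1 lower. Its share called higher, 28.6%, was near that of all genes, and its share called lower was 7.14%. There Pdss1, which starts the tail of coenzyme Q, had a log2 fold change of 1.09 ± 0.17 (SE), Icmt, the methyltransferase of prenylated proteins, 0.61 ± 0.07, and Ggps1, which makes geranylgeranyl diphosphate, -0.27 ± 0.09.

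Of 25 tested genes of sterol uptake, transport and efflux, 8 were lower and 5 higher (median -0.08). These shares were 32% and 20%, against 20.0% and 25.4% of all genes tested. Npc2, which hands cholesterol out of the lysosome, went from 543 ± 27.4 to 248.9 ± 27.3 CPM, a log2 fold change of -1.13 (edgeR adjusted p = 6.21e-08). Stard5, a sterol-binding relative of Stard4, was at -0.90. Apoe, the lipoprotein component that accepts exported cholesterol, went from 32.5 ± 4.13 to 91.3 ± 17.6 CPM (1.49, edgeR adjusted p = 0.00035), and Lrp8, one of its receptors, was at 0.33.

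Of 27 other tested genes of fatty acid synthesis and elongation, 12 were lower and 5 higher (median -0.25). These shares were 44.4% and 18.5%, against 20.0% and 25.4% of all genes tested. The mitochondrial citrate carrier Slc25a1, which feeds Acly, was at -0.47 and the elongation dehydratase Hacd2 at -0.44, whereas its relative Hacd1 was at 0.51 and the lipogenic factor Thrsp, at 0.971 ± 0.176 CPM in the controls, was at 0.91. Of 13 tested genes of glycerolipid synthesis and storage, 6 were lower (46.2%) and 2 higher (15.4%), with a median of -0.26. The lipid droplet coat proteins Plin2 and Plin3 fell, Plin2 from 653 ± 7.60 to 388 ± 29.7 CPM and Plin3 from 90.7 ± 0.430 to 50.6 ± 1.13 CPM. The phosphatidate phosphatase Lpin1 (0.62) and the acyltransferase Dgat1 (0.45) rose. Among 19 tested genes of fatty acid oxidation, 1 was lower (Acaa2, the last thiolase of the spiral, -0.46) and 4 were higher. Among those higher were Acadvl (0.29) and Cpt1c, the brain carnitine acyltransferase relative, which went from 0.397 to 2.55 CPM. The share of this list called higher, 21.1%, was near that of all genes, and the share called lower was 5.26%.

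**Figure D4:**
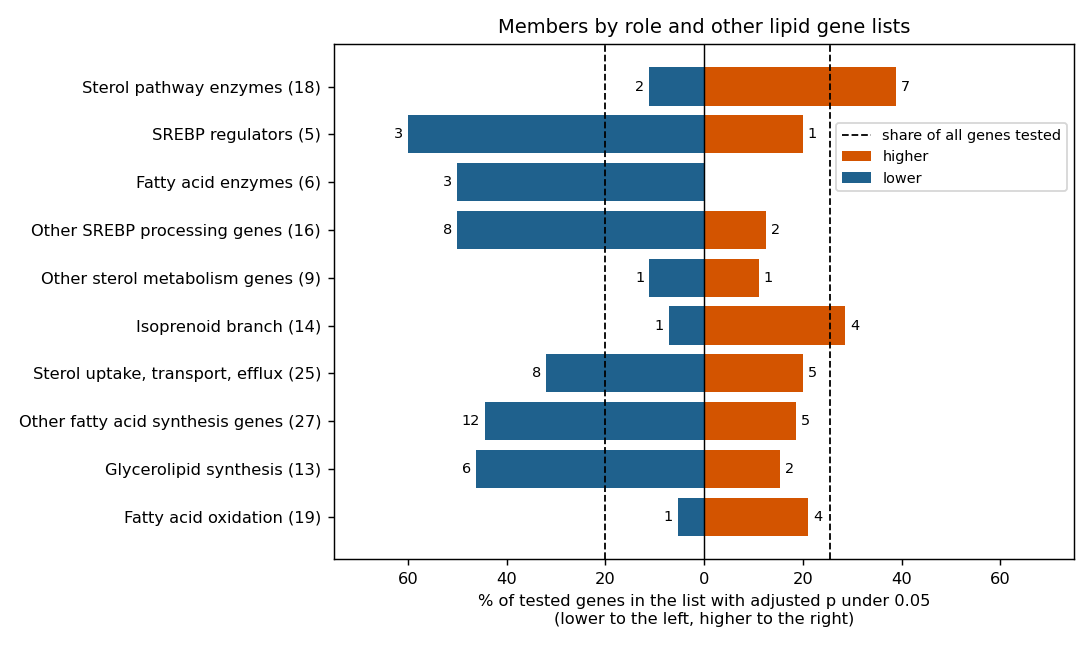
Share of the tested genes in each role or list (number tested in parentheses) that was called lower (bars to the left) or higher (bars to the right) after knockdown, with the number of genes at each bar. Dashed lines mark the shares of all genes tested, 20.0% lower and 25.4% higher; bars past the left line include the SREBP regulators (3 of 5) and other SREBP processing genes (8 of 16).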

How the data were processed

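Ribodepleted total RNA of 4 GapmeR and 2 Negative Control samples of bEND.3 cells had been sequenced as paired reads. The values used are the deposited counts, whole-number reads per gene, which the authors made with the bcbio-nextgen pipeline and STAR on the mouse build mm10 with Ensembl transcripts. The submitters' processing notes also name Trimmomatic 0.36, STAR 2.5.2b and Subread 1.5.2, but whether counting used strand, and which Ensembl release, is not given in the sources used here. Samples were grouped by their titles. The study describes 4 samples in each group. Only 2 Negative Control samples could be matched by label here, so every comparison rests on 2 controls, and 1 further column of counts, named like the controls' columns (N3), was matched to no label and was not used.

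The members, the other gene lists and the tests were chosen with earlier results of these data known. Genes that reached 5 counts in 2 or more samples were tested with the quasi-likelihood test of edgeR 4.0.16 (R 4.3.3) after TMM normalization, with group as the only term and Benjamini-Hochberg adjustment over all 18234 genes tested, and a gene was called at an adjusted p under 0.05. The authors' DESeq2 Wald test was kept as an alternative (DESeq2 1.42.0), beside limma-voom (limma 3.58.1), other scalings and filters, a replicate block and leaving out each sample. The use of GapmeR 1 and 2 alone was added after seeing the data. The scripts were tested on simulated data with known changes. Deviations of same-numbered samples from their group means had correlations of 0.028 and 0.046 over 15257 genes, and the numbers were not taken to pair samples. With 2 controls the deviations of one mirror those of the other, so these correlations cannot exclude shared cultures. Named were all 30 members, Gm39822 and, from each other list, up to 2 genes with the highest and 2 with the lowest log2 fold change among called genes with a mean of at least 1 CPM whose groups did not overlap; genes whose exons overlap a member were named after their values were seen. Exon lengths and overlaps came from GENCODE on GRCm39, gene positions and promoters from RefSeq on GRCm38.p6. Values are TMM-normalized CPM, and at this depth 3 counts correspond to 0.0771 to 0.110 CPM, counting error only.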

Additional observations from a re-analysis of the deposited data

Results flagged for a closer look

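A single value stood out within the 4 knockdown samples by a test for outlying values (Dixon's, at the 95% level): Acat2 in GapmeR 4, at 22.3 CPM against 19.0 to 19.3 in the other 3. Chance marks about 1 in 20 groups in this way, and 30 genes were examined. Without GapmeR 4 Acat2 was still called higher, with a log2 fold change of 0.42 (edgeR adjusted p = 0.0031).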

How the results depend on the processing

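Of the 16 members called, 7 kept their call in the 14 alternative scalings, filters, tests and sample sets at an adjusted p under 0.05 (Acat2, Lss, Tm7sf2, Dhcr7, Srebf1, Scd1 and Scd2), the other 9 lost it in at least 1, and 0 of the 16 changed direction. The median log2 fold change of the 30 members, 0.03, was 0.078 with at least 10 counts required in every sample and 0.18 with scaling by library size alone. Requiring at least 1.5-fold as well ended the call of 4 of these 7 (Acat2, Lss, Dhcr7 and Scd2) and left 1 member higher (Tm7sf2) and 2 lower (Srebf1 and Scd1). The 8 members called lower became 4 with the stricter count filter, which dropped Fasn, Hmgcs1, Msmo1 and Srebf2 (all-gene median 0.00). They became 3 with library size alone, 5 with GapmeR 1 and 2 alone and 5 with the replicate block. Over all genes, 3643 were called lower in the main fit and 2923 of 13353 with the stricter filter. There were 2135 with library size alone, 3203 with GapmeR 1 and 2 alone and 3295 with the replicate block. Leaving out each GapmeR sample in turn gave 5 to 8 members higher and 6 to 8 lower. Over all genes these fits called 4238 to 4800 higher and 3231 to 3949 lower. Leaving out a control leaves a lone control assumed to vary like the GapmeR samples. The median log2 fold change of the members was then 0.056 without Negative Control 1 and 0.035 without Negative Control 2. The block by sample number, on GapmeR 1 and 2 and both controls, gave 7 higher (4517 of all genes). It lost Hsd17b7 (edgeR adjusted p = 0.075), Srebf2 (0.059), Hmgcs1 (0.15) and Msmo1 (0.28). Whether equal numbers mark shared cultures is not known, and the block fit rests on fewer samples. The calls lost there are therefore not read as a weaker effect. Gm39822 stayed between -5.44 and -4.52 wherever it was tested; it was not tested with the stricter filter or without a control.

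Of the 14 members not called, 7 changed sign in at least 1 alternative. With library size alone the log2 fold changes were 0.086 for Acly, 0.0012 for Ebp, 0.12 for Fdft1, 0.011 for Fdps, 0.10 for Insig1, 0.10 for Pmvk and 0.11 for Sqle. The stricter filter gave 0.020 for Fdft1, 0.0038 for Insig1 and 0.0099 for Sqle. With GapmeR 1 and 2 alone the values were 0.0045 for Insig1, 0.036 for Pmvk and 0.0036 for Sqle, and with the replicate block 0.0065, 0.034 and 0.0033. Leaving out each sample gave -0.25 to 0.0081 for Ebp, -0.051 to 0.023 for Fdft1, -0.10 to 0.059 for Insig1, -0.10 to 0.017 for Pmvk and -0.056 to 0.0031 for Sqle. The cause of these changes was not tested. The 2 controls limit the precision of every comparison.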
